A study of Mus musculus with 35 samples.

Results

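The surface proteins used to recognise mesenchymal stem cells were followed here at the RNA level through reprogramming, in the cells that were reprogrammed, in the induced pluripotent stem (iPS) clones made from them and in embryonic stem (ES) cells. The set holds 10 genes, Pdgfra, Pdgfrb, Ly6a, Thy1, Eng, Nt5e, Vcam1, Alcam, Cd44 and Mcam, and takes in every array probe carrying one of these names, which gave 18 of the 41174 gene probes. All source cells came from 6-week-old mice with a Nanog-GFP-puromycin reporter transgene, which every clone therefore carries. PaS cells (CD45-Ter119-PDGFRa+Sca-1+, taken as mesenchymal stem cells) and OP cells (CD45-Ter119-PDGFRa-Sca-1-, taken as osteo progenitors) were sorted from bone marrow and expanded in culture, and TTF are tail tip fibroblasts. Retroviruses carried Oct3/4, Sox2 and Klf4 with c-Myc (4 factors, 4F) or without it (3 factors, 3F), together with DsRed, and clones positive for GFP and negative for DsRed were picked and selected with puromycin. The 6 groups of clones are named by factor set and source (4F-PaS-iPS and so on), and each had 5 clones with 1 array per clone. Each kind of source cell was measured on a single array, and the ES group was 1 array of the EB-3 line and 1 of the RF8 line. The clones grew with LIF on SNL fibroblasts that mitomycin C had stopped from dividing. The 3F clones were selected with puromycin later after infection than the 4F clones, so that factor set and time of selection cannot be told apart. Whether the clones of a group came from separate transductions or animals is not given in the sources used here, so p-values measure only the spread between these lines.

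These proteins sit on the outer face of the cell membrane. Pdgfra and Pdgfrb encode receptor tyrosine kinases for platelet-derived growth factors. Ly6a encodes Sca-1 and Thy1 encodes CD90, small proteins held to the membrane by a lipid anchor. Eng encodes CD105, a co-receptor for TGF-beta family ligands, and Nt5e encodes CD73, the enzyme that makes adenosine from AMP outside the cell. Vcam1, Alcam (CD166), Cd44 (a hyaluronan receptor) and Mcam (CD146) are adhesion molecules. PDGFRa and Sca-1 together define the PaS gate, so the level of Pdgfra and Ly6a in the PaS and OP arrays is a description of sorted cells and not a test.

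Levels below are log2 signals relative to the 75th percentile of the same array, so that 0 means as bright as that percentile, and they are compared between arrays for 1 probe at a time. Where a gene had several probes, the probe with the highest mean over the 35 arrays stands for it. A probe is "well above background" as the scanner software flags it. Between 56.6% and 71.1% of the gene probes passed that flag on an array. The 30 clones were scanned in 1 session on 8 slides. The PaS, OP, TTF and EB-3 arrays shared 1 slide in another session, and the RF8 array lay on a slide of its own in yet another session, so that clones against ES cells, and clones against source cells, cannot be told apart from session. In 3 clones labelled as iPS, clones #1 and #3 of 4F-OP-iPS and clone #1 of 4F-TTF-iPS, Sox2 and Nanog were not well above background, and the calls between clone groups were also made without them.

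The probes read different parts of the transcripts, and the sequences show which ones the results rest on. For 6 genes there were several probes, at least 1 of which lay upstream of the strongest one, and the only probe of Alcam spanned an intron. The sequences shown are those of the upstream probes whose levels are set beside the strongest probe in the text, of the probes that span an intron, and of the strongest probes of Ly6a and Thy1. Positions are those of the array design on the mm7 build of the mouse genome. In the next 6 sequences capitals mark the whole codons of the single reading frame that holds no stop. Of all 60-base gene probes 78.3% have such an open frame, so it is a description and not a sign of coding sequence.
Pdgfra, upstream, plus strand, chr5:74581841-74581900: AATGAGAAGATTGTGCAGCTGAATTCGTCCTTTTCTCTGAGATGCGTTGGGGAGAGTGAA
Cd44, upstream, minus strand, chr2:102685050-102685109: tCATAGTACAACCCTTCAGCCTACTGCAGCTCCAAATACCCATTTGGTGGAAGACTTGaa
Vcam1, upstream, minus strand, chr3:115900948-115901007: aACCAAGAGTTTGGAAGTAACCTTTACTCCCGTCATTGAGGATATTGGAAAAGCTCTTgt
Alcam, across an intron, minus strand, chr16:52100907-52102784: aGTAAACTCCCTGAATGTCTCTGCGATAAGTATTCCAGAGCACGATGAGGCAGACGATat
Nt5e, across an intron, plus strand, chr9:88470130-88471096: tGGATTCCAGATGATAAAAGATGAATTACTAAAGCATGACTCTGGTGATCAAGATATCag
Thy1, upstream and across an intron, plus strand, chr9:43981253-43981698: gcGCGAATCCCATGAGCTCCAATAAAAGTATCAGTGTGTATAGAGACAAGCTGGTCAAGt
The upstream Mcam probe had 2 open frames and is given without capitals. Stretches of 30 bases from the Ly6a probe and the strongest Thy1 probe follow, with the position of the whole probe. In that Thy1 stretch capitals mark AATAAA, the signal for adding a poly(A) tail, searched on the probe's own strand. It was found in 3 of the 18 probes and in 4.78% of all 60-base gene probes.
Mcam, upstream, plus strand, chr9:44074728-44074787: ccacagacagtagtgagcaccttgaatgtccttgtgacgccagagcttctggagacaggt
Ly6a, minus strand, chr15:75075673-75075732: agtgtgtgaaataccatgttttgcctttat
Thy1, plus strand, chr9:43982862-43982921: aactgcacAATAAAaccaagcctctggagt

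**Figure D1:**
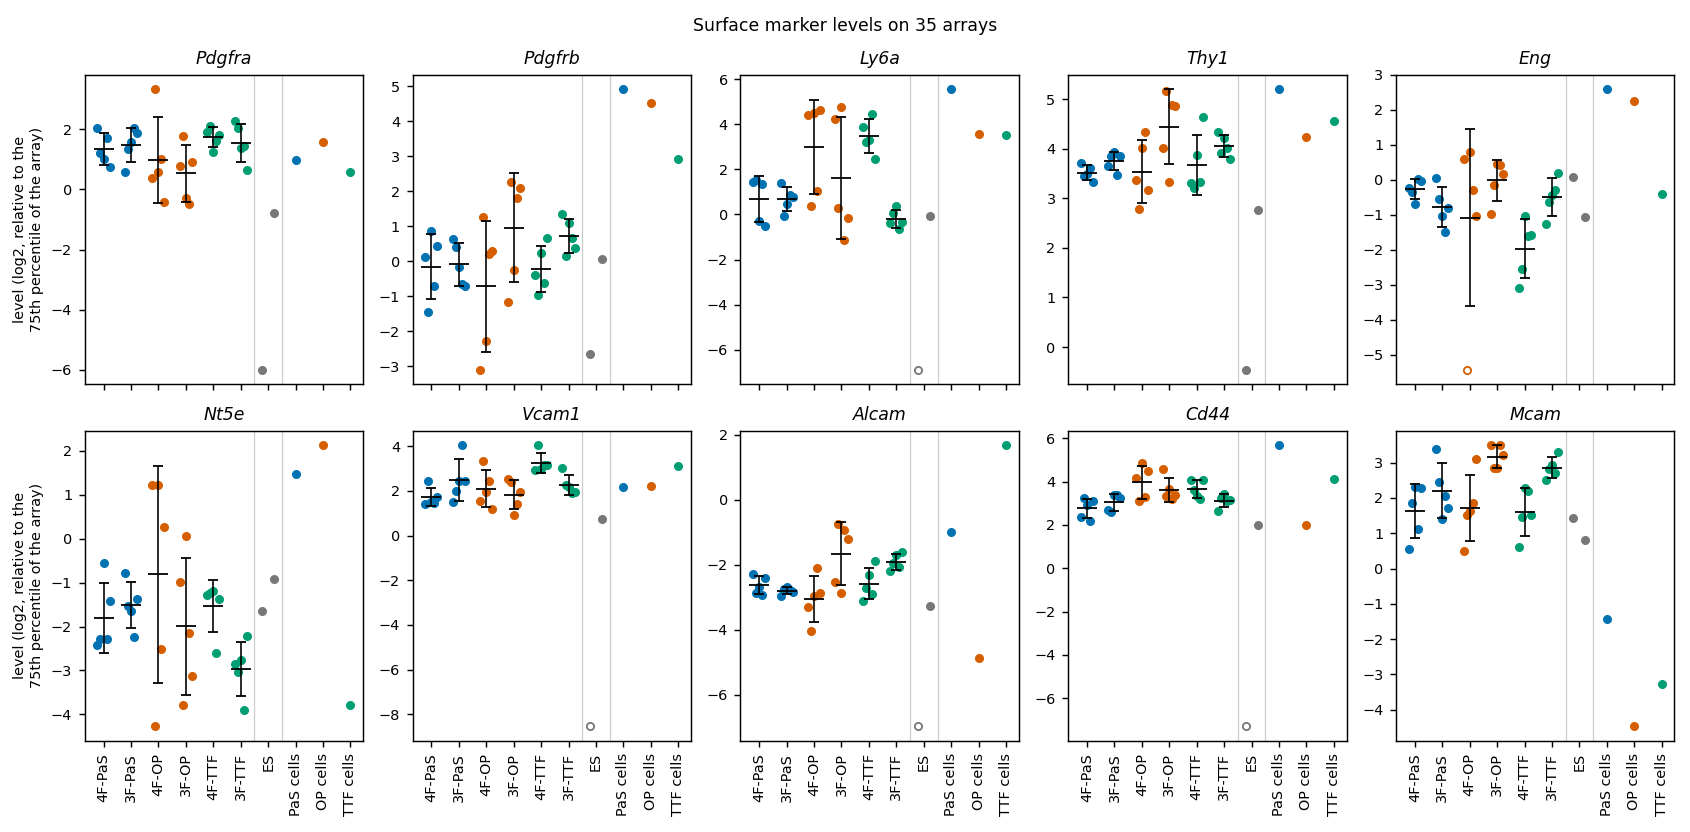
Each panel shows 1 gene, with the log2 level relative to the 75th percentile of the array on the vertical axis and the 6 clone groups, the ES arrays (EB-3 left, RF8 right) and the 3 source arrays on the horizontal axis. Points are arrays (open: not well above background) and black bars give the mean ± SD of 5 clones. Mcam lies lower in the 3 source arrays than in every clone, and Ly6a splits the OP clones into high and low ones.

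The source cells came first, since the sort was made on protein. All 10 genes were well above background in the PaS, OP and TTF arrays. With 1 array per source there is no replicate check on any difference between them, and no test was made. Pdgfra did not follow the gate: its level was 0.98 in PaS cells, 1.58 in OP cells and 0.59 in TTF. The upstream Pdgfra probe printed above gave -4.20, -2.38 and -4.61 in the same order, so that OP cells, sorted as PDGFRa-, were the highest of the 3 by both probes. The label and the transcript thus go against each other for Pdgfra, and whether the RNA was taken at the sort or after expansion is not given in the sources used here. Ly6a followed the gate in part. Its level was 5.58 in PaS cells against 3.54 in OP cells and 3.53 in TTF, a difference of 2.04 between PaS and OP on the log2 scale, but it was far from absent in cells sorted as Sca-1-.

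Against OP cells, PaS cells had more Alcam, Cd44, Mcam and Ly6a. Alcam, which binds CD6, was 14.5-fold higher at -1.0 against -4.86. Cd44, at 5.69 against 2.01, was 12.8-fold higher. Mcam was 8.33-fold higher by its strongest probe, at -1.42 against -4.47. These 3 with Ly6a were the 4 of 10 genes at least 2-fold apart, all in the same direction, where 31.0% of all probes above background on either array were that far apart in either direction. Pdgfrb, at 4.93 and 4.52, Eng, at 2.61 and 2.26, Thy1, at 5.20 and 4.23, Nt5e, at 1.47 and 2.13, and Vcam1, at 2.17 and 2.23, were less than 2-fold apart. Taking the second probe where there was one changed this to 7 of 10, with Thy1 1.75 higher in PaS cells on the log2 scale and Pdgfra and Vcam1 lower by 1.82 and 1.43. Mural cell genes, which mark pericytes and smooth muscle where Mcam is also found, were higher in PaS cells too. The mean level of the 5 on the array was 0.68 in PaS cells, -1.96 in OP cells and -2.12 in TTF. Acta2, Tagln and Myh11 were higher in PaS than in OP cells by 2.03, 2.97 and 3.54 on the log2 scale, and Rgs5 was well above background in PaS cells and not in OP cells or TTF. Their part in the Mcam levels of the source arrays was not tested.

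TTF differed from the bone marrow cells mainly by less Eng, Nt5e and Pdgfrb and by more Alcam. Nt5e was -3.78 in TTF, 38.2-fold below PaS cells, and its probe across an intron was not well above background there, which gave a level at least 3.08-fold higher in PaS and at least 5.80-fold higher in OP cells. Eng was -0.39 in TTF and Pdgfrb 2.91. Alcam was 1.69, which is 93.6-fold above OP cells. Across the set, 7 of 10 genes were at least 2-fold apart between PaS cells and TTF, where 42.1% of all probes were, and 6 of 10 between OP cells and TTF, where 40.5% were. The TTF array also carried blood cell transcripts. Of 12 blood cell markers, 11 were well above background there against 7 in PaS and 6 in OP cells, with a mean level of -0.50 against -5.47 and -5.77. Emr1 (F4/80), a macrophage marker, was at 6.74 in TTF and not well above background in PaS or OP cells, and Ptprc (CD45) was at 4.14 in TTF. The part of these cells in the TTF levels of the markers was not tested. In such bulk samples fewer cells of a kind and less RNA in each cell cannot be told apart. The osteoblast genes stood highest in OP cells, where Ibsp (bone sialoprotein) was at 3.65 and not well above background in PaS cells or TTF, and the general fibroblast genes were well above background in all 3 arrays, 12 of 12 in each.

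After reprogramming, the markers moved in different directions. Set against the mean of its own 10 clones, the PaS array was at least 2-fold higher for 7 genes and at least 2-fold lower for 1, so that 8 of 10 were that far apart where 43.4% of all probes were. The OP array was higher for 4 and lower for 3, 7 of 10 against 45.1% of all probes. The TTF array was higher for 3 and lower for 3, 6 of 10 against 46.9%. These are values without a test, because each source had 1 array and was scanned apart from the clones.

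Pdgfrb, Ly6a and Mcam moved the same way for every source, by at least 2-fold over the mean of the own clones. Pdgfrb was above all 30 clones in each of the 3 source arrays, by 5.06 for PaS, 4.40 for OP and 2.66 for TTF over the mean of the own clones. Ly6a was above the mean of the own clones by 4.89 for PaS, 1.25 for OP and 1.89 for TTF. Below their source array in Ly6a were 10 of 10 PaS clones, 5 of 10 OP clones and 8 of 10 TTF clones. Mcam ran the other way. It was -1.42 in PaS cells, -4.47 in OP cells and -3.27 in TTF, and from 0.50 to 3.49 in the 30 clones, with 1.44 in EB-3 and 0.81 in RF8. No clone was as low in Mcam as any source array, and the source arrays minus the means of their clones gave -3.33, -6.92 and -5.5. The upstream Mcam probe was not well above background in OP cells and TTF, and was so in all 30 clones. The EB-3 array shared its slide with the source arrays, so the higher Mcam of EB-3 was seen within 1 slide.

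Vcam1 was by its strongest probe less than 2-fold from the mean of the own clones for all 3 sources, and the other markers differed for at least 1 source. Vcam1, the ligand of integrin alpha-4 beta-1, was 2.17, 2.23 and 3.12 in PaS, OP and TTF and had a median of 2.22 in the clones, between 0.93 and 4.05. The upstream Vcam1 probe was at 0.84 in OP cells, above all 10 OP clones, whose mean was -0.58 and whose highest was 0.15. Pdgfra had by its strongest probe a median of 1.35 in the clones, between -0.50 and 3.34, which takes in all 3 source levels, although all 10 TTF clones were above TTF. By the upstream Pdgfra probe, PaS cells at -4.20 and TTF at -4.61 were below all 30 clones, the lowest of which was at -3.80, and OP cells at -2.38 were within the range of the OP clones. Thy1 was 5.20, 4.23 and 4.56 in the source arrays and between 2.79 and 5.17 in the clones, so that PaS cells were above every clone by the strongest probe. By the upstream Thy1 probe PaS cells, at -0.04, were above all 10 PaS clones but not above the highest OP clone, at -0.03. Cd44 was higher in PaS cells (5.69) than in every clone, but lower in OP cells (2.01), where all 10 OP clones were above it. For Alcam, OP cells were below all 30 clones and TTF above them. Nt5e in PaS and OP cells was above all 30 clones by its strongest probe. Its probe across an intron was well above background in 3 of 30 clones. By that probe PaS cells, at -5.00, were above all 10 PaS clones but not above the highest OP clone, at -4.45.

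**Figure D2:**
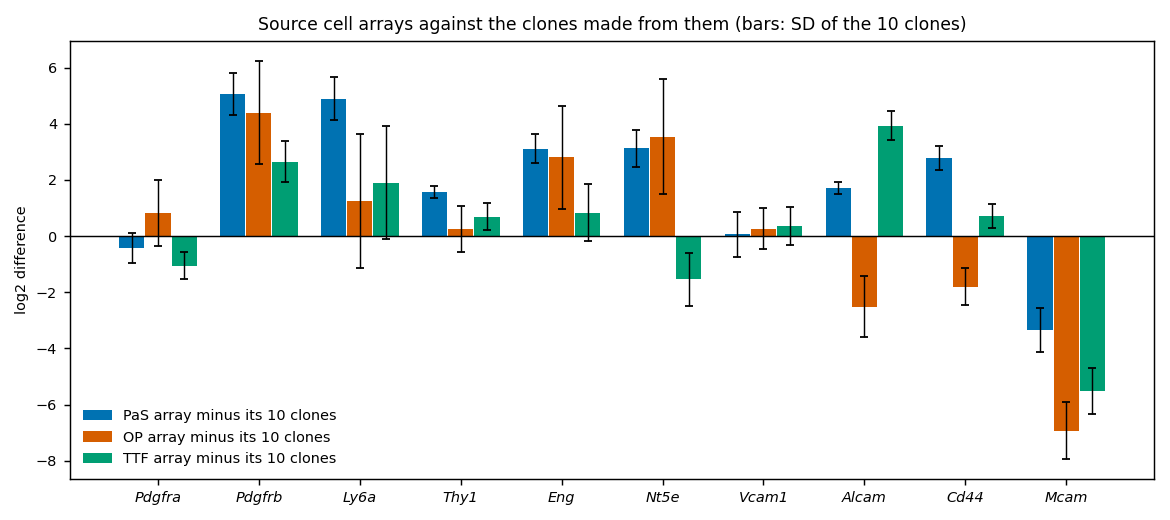
Bars give the log2 level of the source array minus the mean of the 10 clones made from that source, for each gene on the horizontal axis, and error bars are the SD of the 10 clones. Pdgfrb is positive and Mcam negative for all 3 sources, whereas Alcam and Cd44 change sign between them.

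Ly6a had the largest SD over the 30 clones of the 10 genes, at 1.91. In 4F-TTF-iPS it was 3.89, 3.23, 3.29, 4.46 and 2.45 in clones #1 to #5. In 3F-TTF-iPS it was -0.38, 0.06, 0.36, -0.67 and -0.32. The 5 clones made with c-Myc were thus near the TTF array at 3.53, and the 5 made without it were all below them with no overlap. In 4F-OP-iPS Ly6a was 4.41, 0.38, 4.51, 1.04 and 4.61, and in 3F-OP-iPS 4.25, 0.30, 4.74, -1.14 and -0.14. The OP clones fell into high ones, 4F #1, #3 and #5 and 3F #1 and #3, and low ones, with nothing between 1.04 and 4.25. The PaS clones were all low, at 1.44, 1.51, -0.30, 1.35 and -0.51 with 4 factors and 1.39, -0.09, 0.45, 0.87 and 0.79 with 3 factors, although their source array was the highest. Over all 30 clones the range was from -1.14 to 4.74.

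The upstream Cd44 probe, which the array annotation gives to a longer Cd44 transcript and which lies 21513 bases from the strongest probe, was well above background in 11 of 30 clones. They were all 5 of 4F-TTF-iPS (-2.31, -3.50, -3.37, -4.76 and -4.16), 4F-OP-iPS #1, #3 and #5 (-3.45, -1.69 and -2.61), 3F-OP-iPS #1 and #3 (-2.30 and -4.75) and 4F-PaS-iPS #2 (-4.83). No clone of 3F-TTF-iPS or 3F-PaS-iPS reached it, nor did OP cells, TTF or either ES array, while PaS cells did, at -6.86. The strongest Cd44 probe was well above background in all 30 clones, from 2.20 to 4.86. By that probe too, 4F-OP-iPS #1, #3 and #5 and 3F-OP-iPS #1 and #3 were the highest of the OP clones, at 3.67 to 4.86 against 3.11 to 3.39 in the others.

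Clones were next compared by their origin, each source with its 10 clones over both factor sets, by limma over 27623 probes. A gene was called at an adjusted p (Benjamini-Hochberg over all probes) under 0.05 and at least 2-fold. None of the 10 genes was called between PaS and OP clones, where 1.6% of all probes were called and 1 member had an unadjusted p under 0.05 by its strongest probe. That gene was Ly6a, lower in PaS clones by a log2 difference of -1.61 ± 0.76 (SE), adjusted p = 0.215 by limma. None was called between PaS and TTF clones, with 0.496% of probes called, or between OP and TTF clones, with 0.0217% called, and in neither had any member an unadjusted p under 0.05. On the 3 slides that held PaS and OP clones of the same factor set, Ly6a was lower in the PaS clones by log2 differences of -2.80, -1.87 and -1.44. The median log2 difference over the 10 genes was -0.30 for PaS against OP clones, -0.35 for PaS against TTF clones and 0.17 for OP against TTF clones, beside 0.03, -0.01 and -0.02 over all probes tested.

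The groups were also little ordered. When the 6 group means of a gene were ranked, 4 of the 50 neighbouring pairs over the 10 genes differed by more than the larger SD of the pair, and all 4 had 3F-TTF-iPS as a member. Ly6a ran from 3.46 ± 0.76 (SD, n = 5) in 4F-TTF-iPS and 2.99 ± 2.10 in 4F-OP-iPS through 1.60 ± 2.70 in 3F-OP-iPS to 0.70 ± 1.01 and 0.68 ± 0.55 in 4F- and 3F-PaS-iPS, and -0.19 ± 0.40 in 3F-TTF-iPS. Of these steps only the last was larger than the spread. Mcam ran from 3.17 ± 0.32 in 3F-OP-iPS and 2.86 ± 0.30 in 3F-TTF-iPS through 2.20 ± 0.77 in 3F-PaS-iPS to 1.72 ± 0.93, 1.63 ± 0.76 and 1.61 ± 0.67 in the 4F groups of OP, PaS and TTF. No step of this order exceeded the spread, though the 3F groups took the top ranks. For Pdgfra the means lay between 1.73 ± 0.33 in 4F-TTF-iPS and 0.53 ± 0.94 in 3F-OP-iPS, and for Vcam1 between 3.26 ± 0.45 in 4F-TTF-iPS and 1.72 ± 0.41 in 4F-PaS-iPS. Nt5e ranged from -0.81 ± 2.47 in 4F-OP-iPS to -2.96 ± 0.62 in 3F-TTF-iPS, and Cd44 from 3.98 ± 0.76 in 4F-OP-iPS to 2.76 ± 0.46 in 4F-PaS-iPS.

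In the main fit, clones made without c-Myc had more Mcam in the OP and TTF groups and less Ly6a in the TTF group. None of these calls held with slide as a random block, as the next paragraph gives. In TTF clones Ly6a was lower with 3 factors by a log2 difference of -3.65 ± 1.07 (SE), a 12.6-fold difference, with an adjusted p of 0.0299 by limma. Mcam in the TTF clones was 0.61, 1.46, 2.27, 2.20 and 1.51 with 4 factors and 2.51, 2.82, 2.93, 2.71 and 3.31 with 3. The groups did not overlap, and the log2 difference was 1.25 ± 0.41 with an adjusted p of 0.0487 by limma. By the upstream Mcam probe the groups overlapped and Mcam was not called, at 0.90 ± 0.45 (adjusted p = 0.206 by limma). Ly6a and Mcam were the 2 of 10 genes called by their strongest probes, where 5.77% of all probes were called. In OP clones Mcam was 0.50, 1.53, 1.63, 1.86 and 3.1 with 4 factors and 3.49, 2.84, 2.85, 3.49 and 3.21 with 3, which overlap through 4F-OP-iPS #5. The log2 difference was 1.45 ± 0.41, a 2.73-fold rise, with an adjusted p of 0.0276 by limma. The upstream Mcam probe gave 1.31 ± 0.45 (adjusted p = 0.0696 by limma) and was not called. Mcam was the 1 of 10 genes called by its strongest probe, where 4.5% of all probes were. In PaS clones, where 0.0181% of probes were called, limma called 0 of 10 genes and none had an unadjusted p under 0.05. Mcam there was 0.57, 1.86, 2.31, 1.13 and 2.28 with 4 factors and 3.39, 2.46, 1.39, 2.05 and 1.72 with 3. The difference of the Mcam change between PaS and OP clones was itself not past the threshold, at -0.88 ± 0.57 with an adjusted p of 0.412 by limma, and no member passed in such a test for any pair of sources.

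The calls depended on how slides were treated and on single clones. Clones of a source made with and without c-Myc never shared a slide. With slide as a random block the log2 difference was -3.37 ± 1.51 for Ly6a (adjusted p = 0.420 by limma) and 1.26 ± 0.58 for Mcam (0.429) in TTF clones and 1.82 ± 0.53 for Mcam in OP clones (0.0847). Without 4F-OP-iPS #1, the OP clone lowest in Mcam, the log2 difference was 1.14 (adjusted p = 0.113 by limma), and without the 3 clones lacking Sox2 and Nanog it was 1.01 (adjusted p = 0.231). Without 4F-TTF-iPS #1 the TTF difference was -3.55 for Ly6a (adjusted p = 0.072) and 1.00 for Mcam (adjusted p = 0.158).

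Markers of other cells also differed between 3F and 4F clones. Beside the counts below, 4.5% of all probes were called between 3F and 4F OP clones and 5.77% between 3F and 4F TTF clones. Mcam is found on pericytes and smooth muscle as well. Of 4 mural cell genes tested, 3 rose in 3F against 4F OP clones, the smooth muscle actin gene Acta2 by 3.24 ± 0.82, Tagln by 2.52 ± 0.70 and Myh11 by 2.41 ± 0.66, and 1, the intermediate filament gene Des, rose in 3F TTF clones by 2.20 ± 0.48. The mean level of the 5 mural genes on the array lay between -1.26 and 1.32 in 3F-OP-iPS and between -2.23 and -0.01 in 4F-OP-iPS, and between 0.35 and 0.52 in 3F-TTF-iPS and between -1.89 and 0.33 in 4F-TTF-iPS. Of 3 osteoblast genes tested, Bglap1, an osteocalcin gene, rose in 3F clones of OP by 1.83 ± 0.39 (adjusted p = 0.00666 by limma) and of TTF by 1.71 ± 0.39 (adjusted p = 0.00723). A further osteoblast gene, Alpl, goes by the name Akp2 on the array, and no test was read out for it. Its level was well above background in all 30 clones, from -1.64 to 4.12. Of 11 fibroblast genes tested, Loxl1, a lysyl oxidase-like enzyme, rose in 3F OP clones by 1.34 ± 0.40 (adjusted p = 0.0356 by limma), 4 had an unadjusted p under 0.05, and the median log2 difference was 1.34. Of 6 pluripotency genes, Zfp42 (Rex1) and Dppa5 rose in 3F OP clones, by 2.41 ± 0.72 and 3.76 ± 1.08. Without the 3 clones lacking Sox2 and Nanog these were 1.19 for Zfp42 (adjusted p = 0.415 by limma) and 1.45 for Dppa5 (adjusted p = 0.253), and Acta2 was 2.41 and Tagln 1.79, neither of them called, nor was Myh11 (adjusted p = 0.210). Over all the lists, 9 genes other than the markers were called between 3F and 4F OP clones, where 4.5% of all probes were. Of the 9, 0 were called by limma with slide as a random block (adjusted p from 0.0865 to 0.224) or without those 3 clones (0.0896 to 0.415). With slide as a random block the log2 differences were 3.61 ± 1.06 for Acta2, 2.74 ± 0.93 for Tagln, 2.50 ± 0.92 for Myh11, 2.52 ± 0.95 for Zfp42, 3.96 ± 1.41 for Dppa5, 1.64 ± 0.49 for Bglap1 and 1.30 ± 0.50 for Loxl1, with larger SEs for each of them. Between 3F and 4F TTF clones 7 were called, where 5.77% of all probes were. Of the 7, 0 were called with slide as a random block (adjusted p from 0.240 to 0.503 by limma), with Des at 2.00 ± 0.66 and Bglap1 at 1.36 ± 0.54, and 5 without those clones. None of 6 endothelial genes was called by limma in either comparison, with 0 and 1 at an unadjusted p under 0.05. The part of such cells in the Mcam levels was not tested.

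Alcam, Thy1 and Pdgfrb in OP clones had an unadjusted p under 0.05 but were not called. Alcam was -3.31, -4.03, -2.95, -2.09 and -2.87 with 4 factors and -2.53, -0.73, -2.87, -0.93 and -1.21 with 3, a log2 difference of 1.39 ± 0.46 with an adjusted p of 0.0582 by limma. Thy1 differed by 0.91 ± 0.41 (adjusted p = 0.161 by limma) and Pdgfrb by 1.67 ± 0.72 (adjusted p = 0.144 by limma). Eng in TTF clones differed by 1.48 ± 0.70 with an adjusted p of 0.178 by limma. The upstream Cd44 probe was not well above background on any of the 5 arrays of 3F-TTF-iPS. It was at least 3.35-fold higher in 4F-TTF-iPS, with measured means of -3.62 and -6.71. No test is given for it, since it entered the tests only through the group in which it was high.

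**Figure D3:**
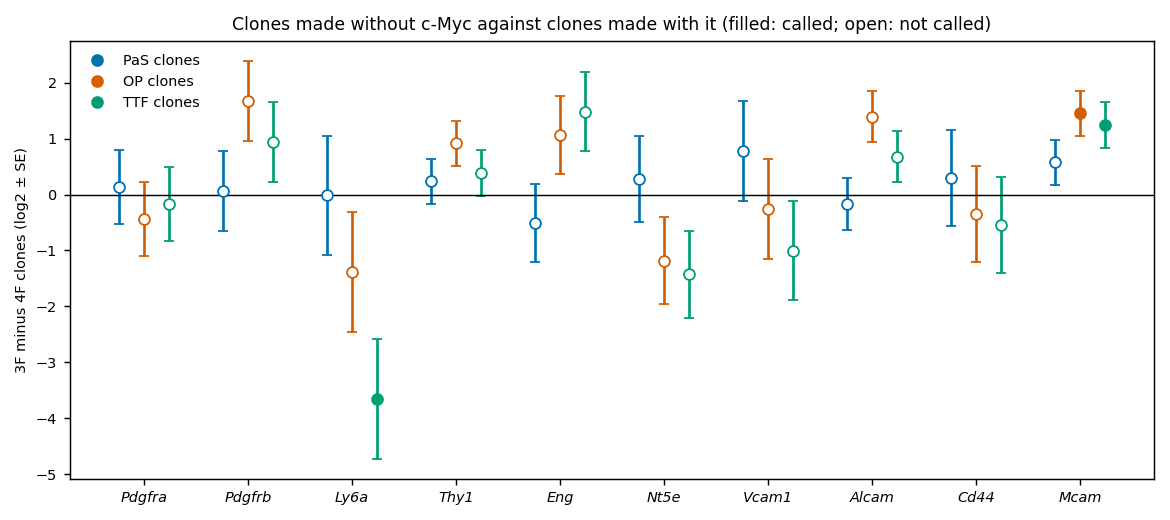
Points give the log2 difference of 3F minus 4F clones for each gene, with bars of 1 SE, for PaS, OP and TTF clones (5 against 5 each). Filled points were called, which were Ly6a and Mcam in TTF clones and Mcam in OP clones.

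The clones had more Pdgfra and Thy1 than the ES arrays, but the ES arrays differed widely from each other. Pdgfra was -6.00 in EB-3 and -0.80 in RF8, against a clone range from -0.50 to 3.34. Ly6a was -6.90 in EB-3, not well above background, and -0.09 in RF8. Vcam1 was -8.55 in EB-3 and 0.76 in RF8, and Cd44 was -7.31 and 2.01, with neither gene well above background in EB-3. RF8 was at least 388-fold higher than EB-3 for Cd44, at least 164-fold for Vcam1, at least 90.8-fold for Ly6a and at least 9.98-fold for Alcam. Thy1 was -0.46 and 2.77, and Pdgfrb was -2.65 and 0.07. Eng, at 0.08 and -1.05, was higher in EB-3, and Nt5e and Mcam were less than 2-fold apart. Thus 8 of 10 genes were at least 2-fold apart between the ES arrays, 7 of them higher in RF8, where 39.4% of all probes were that far apart.

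Of the 10 genes, 6 were well above background on both ES arrays, and limma over both arrays called 2 of the 6 higher in the clones, where 33.7% of all probes above background on both, and 36.2% of all probes tested, were called in either direction. They were Pdgfra with a log2 difference of 4.67 ± 0.76 (SE) and an adjusted p of 1.47e-05, and Thy1 with 2.68 ± 0.47 and an adjusted p of 3.59e-05. Pdgfrb, Eng, Nt5e and Mcam were not called by their strongest probes. For Mcam that probe gave 1.07 ± 0.47 (adjusted p = 0.0564 by limma). The upstream Mcam probe, well above background on both ES arrays, was called higher in the clones, by 1.40 ± 0.52 (adjusted p = 0.0263 by limma). It was not called with slide as a random block (adjusted p = 0.0569 by limma). Vcam1, Cd44, Ly6a and Alcam were well above background in RF8 alone and entered the tests only through the clones, so no test over both arrays is given for them. Against EB-3 the mean of the 30 clones was at least 999.8-fold higher for Cd44, at least 468-fold for Vcam1, at least 281-fold for Ly6a and at least 17.85-fold for Alcam. Against RF8 alone, on which all 10 genes were measured, 2 were called, where 31.0% of all probes were. Pdgfra differed by 2.07 ± 0.80 (adjusted p = 0.0432 by limma) and Cd44 by 1.36 ± 0.50 (adjusted p = 0.0316), and Vcam1 was 1.52 higher with an adjusted p of 0.0679. All 30 clones were above RF8 in Cd44 and Vcam1, 28 in Alcam and 22 in Ly6a. Thy1 was 1.06 higher than in RF8 with an adjusted p of 0.0888 by limma. Against EB-3 alone, 3 of the 6 genes measured there were called, where 36.0% of all probes were, Pdgfra with 7.27, Thy1 with 4.29 and Pdgfrb with 2.73 ± 1.11 (adjusted p = 0.0477 by limma). The lone ES array was then assumed to vary like the clone groups.

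The ES arrays also differed in general fibroblast genes. Of 12 such genes, such as the collagens Col1a1 and Col3a1, 7 were well above background in EB-3 and all 12 in RF8, with a mean level of -4.32 in EB-3 and 1.22 in RF8. The clones lay between 0.24 and 3.63. Col1a1 was -4.62 in EB-3 and 3.13 in RF8, and Dcn (decorin) was not well above background in EB-3 and at 1.93 in RF8. Over RF8 the clones were higher by 1.60 for Dcn and by 0.70 for Col1a1 on the log2 scale. Of the 7 above background in both lines, 4 were called by limma higher in the clones than in both ES arrays together and none lower, where 33.7% of the probes above background on both were called. Against EB-3 alone the 4 were called again, and against RF8 alone limma called 0 of the 4. S100a4, one of them, was -4.63 in EB-3 and 6.88 in RF8, and the mean of the clones was 6.42. The pluripotency genes were well above background in both lines, 6 of 6, with mean levels of 5.62 in EB-3 and 4.18 in RF8. The part of fibroblasts, feeder cells included, in the marker levels of the clones and of RF8 was not tested.

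**Figure D4:**
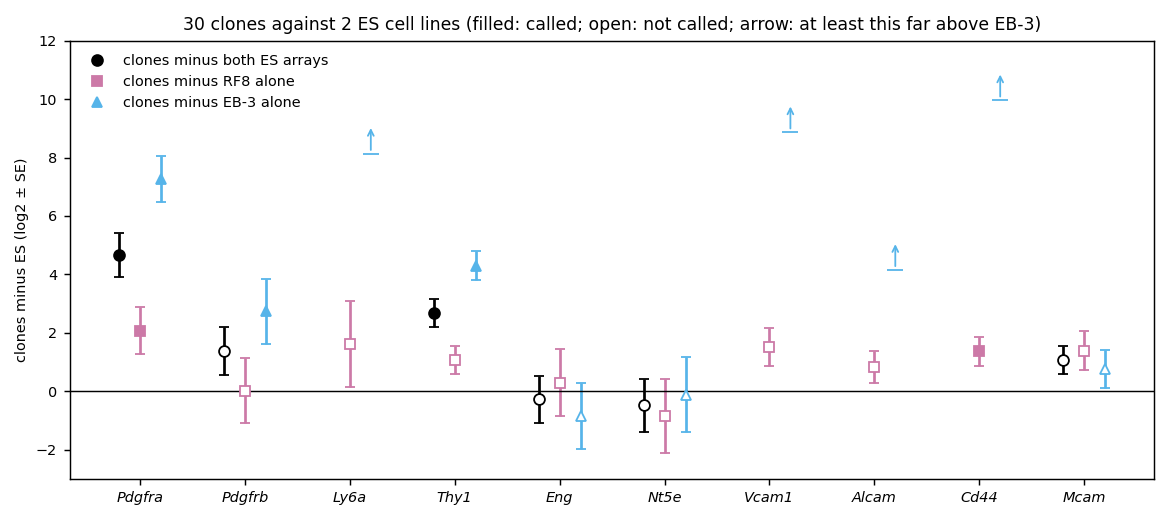
Points give the log2 level of the clones minus that of ES cells for each gene, with bars of 1 SE, using both ES arrays, RF8 alone or EB-3 alone (30 clones, 5 in each of 6 groups). Filled points were called, and arrows start at the lower bound over EB-3 for the 4 genes not well above background there, for which no value with both arrays is drawn. Pdgfra differs by 4.67 with both arrays, 2.07 with RF8 alone and 7.27 with EB-3 alone.

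The genes that work with the markers were counted from lists. Of the 4 platelet-derived growth factor genes, Pdgfa was at 5.14, 4.78 and 3.42 in PaS, OP and TTF and had a median of 4.96 in the clones, while Pdgfb was not well above background in PaS and OP cells. None of the 4 was called by limma between sources, where at most 1 had an unadjusted p under 0.05. Pdgfc rose in 3F against 4F OP clones by 1.22 ± 0.38 (adjusted p = 0.0473 by limma), and with slide as a random block by 1.26 ± 0.46 (adjusted p = 0.153). Of 8 TGF-beta ligands and receptors that work with endoglin, 0 were called by limma in any comparison of clone groups, with 0 to 2 at an unadjusted p under 0.05, and of the 6 well above background in both ES arrays 3 were called higher and 1, Tgfbr1, lower in clones than in both together, beside 33.7% of such probes. Of the 3, Tgfbr2 and Acvrl1 were also called against RF8 alone, by 1.59 ± 0.51 and 3.72 ± 0.96, and Tgfb2 was not, at 0.03 ± 0.97 against RF8 and 4.31 ± 0.97 against EB-3. With slide as a random block Tgfb2 differed from both by 2.14 ± 0.92 (adjusted p = 0.0578 by limma). Of the 7 adenosine genes tested, Adk, adenosine kinase, was lower in 3F than in 4F TTF clones, by a log2 difference of -1.34 ± 0.38 (adjusted p = 0.0251 by limma), and with slide as a random block by -1.06 ± 0.55 (adjusted p = 0.503). Adora1, an adenosine receptor, was the 1 of 6 adenosine genes above background in both ES arrays that was called higher in the clones, by 6.26 ± 0.57, and it was called against each ES array alone, by 5.90 ± 0.80 for RF8 and 6.62 ± 0.80 for EB-3. Of the 11 ligands and partners of the adhesion molecules tested, Itgb3, the integrin beta-3 chain, was higher in PaS than in TTF clones by 2.07 ± 0.52 (adjusted p = 0.0435 by limma), with slide as a random block by 2.26 ± 0.63 (adjusted p = 0.172), and 0 were called by limma between 3F and 4F clones, with 0 to 3 at an unadjusted p under 0.05. Of 9 further mesenchymal stem cell markers tested, 0 were called by limma between clone groups, with 0 to 3 at an unadjusted p under 0.05, and of the 8 well above background in both ES arrays 4 were called higher in clones than in both together, beside 33.7% of such probes. Of these, Pdpn (podoplanin), with 2.53 ± 0.46, was called against each ES array alone. Cspg4 was called against EB-3 alone and was -0.25 ± 0.73 against RF8, and Itga5 and Cd9 were called against RF8 alone, with 0.04 ± 0.47 and 1.04 ± 0.46 against EB-3.

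Relatives of Ly6a moved in both directions. Among 6 tested genes of the Ly6 family, 4 were called between 3F and 4F TTF clones, where 5.77% of all probes were. With 3 factors 3 were lower, Ly6d by -5.91 ± 1.23 (adjusted p = 0.00389 by limma), Ly6i by -2.76 ± 0.67 (adjusted p = 0.0105) and Ly6f by -1.33 ± 0.41 (adjusted p = 0.0383). Ly6k was higher by 2.62 ± 0.70 (adjusted p = 0.0189 by limma). Ly6c1 goes by the name Ly6c on the array, and no test was read out for it. Its mean was 5.89 in 4F-TTF-iPS and 2.58 in 3F-TTF-iPS, with 5 of 5 clones well above background in both. In 3F-TTF-iPS Ly6d was well above background in 3 of 5 clones and Ly6f in 2 of 5, so that their fitted differences rest in part on dim spots, while in each PaS group both were so in 5 of 5 clones. Ly6d was also lower in PaS than in OP clones, by -3.22 ± 0.87 (adjusted p = 0.0369 by limma), and Ly6k was higher in PaS than in OP clones by 1.83 ± 0.50 (adjusted p = 0.0387) and in 3F than in 4F OP clones by 2.33 ± 0.70 (adjusted p = 0.0396). Of all probes 1.6% were called between PaS and OP clones and 4.5% between 3F and 4F OP clones. With slide as a random block limma called none of the 4 genes between 3F and 4F TTF clones, with Ly6d at -5.42 (adjusted p = 0.240), Ly6i at -2.53 (0.350), Ly6f at -1.45 (0.362) and Ly6k at 2.40 (0.387). It then also did not call Ly6d between PaS and OP clones, at -3.11 (adjusted p = 0.0590), or Ly6k between 3F and 4F OP clones, at 2.17 (0.224), and it still called Ly6k between PaS and OP clones, at 1.88 (0.0492). Without the 3 clones lacking Sox2 and Nanog, neither Ly6d, at -3.15 (adjusted p = 0.167 by limma), nor Ly6k, at 1.31 (0.256), was called between PaS and OP clones. The array places all of these on chromosome 15, where Ly6a is. Among 20292 probes well above background in all 30 clones, the 3 genes most like Ly6a over the clones were Ly6c with r = 0.998, Ly6i with 0.979 and Gsto1 with 0.940. Ly6k (r = -0.65), Ly6h (-0.53 and -0.55 by its 2 probes) and Lypd1 (-0.30) ran against Ly6a. Genes of this family are near-identical in places, so their signals are uncertain one by one. The longest run of bases that the Ly6a probe shares with the Ly6i probe or with either Ly6c probe is 10. That compares probes with each other and not with the transcripts of the other genes, so it cannot bear on cross-hybridisation. Cross-hybridisation was not tested.

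The genes most alike over the 30 clones differed from marker to marker. For Pdgfra they were Gata4 (r = 0.959), Hkdc1 (0.943) and Pthr1 (0.939). For Pdgfrb they were Islr (0.861), Ltbp2 (0.851) and Col5a1 (0.848), and for Thy1 Bgn (0.904), Rhoj (0.903) and Prrx1 (0.896). Bgn, biglycan, was also the nearest to Alcam (0.906). For Cd44 the nearest was Emp1 (0.923), for Mcam Itga2b (0.902), for Eng Tarsl2 (0.935), for Nt5e 1200015A19Rik (0.888) and for Vcam1 5330421C15Rik (0.855). These are Pearson correlations over lines that share sources, slides and a session, given as a description.

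Promoter sequence from RefSeq (GRCm38.p6), 300 bases around the start, was matched for 6 of the 10 genes. Mcam, Alcam and Nt5e had 29, 25 and 23 CpG dinucleotides, more than 87.1%, 81.6% and 78.5% of 32851 promoters of that length. Cd44 and Eng had 6 each and Pdgfra 5, around the median of 7. No DNA methylation was measured on these arrays.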

How the data were processed

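Total RNA labelled with Cy3 had been hybridised to 1-colour Agilent mouse arrays, 35 in all. Per the file headers, the authors' Feature Extraction software (10.5.1.1 for the clones, 10.7.3.1 for the source and EB-3 arrays, 9.5.3.1 for RF8) gave background-subtracted intensity per spot. The deposited series table holds the same arrays as log2 values centred per probe (the median of each probe over the arrays was 0). The members and gene lists were chosen with earlier results of these data known. Control spots and 54 to 152 outlier spots per array were left out, log2 intensities were scaled to each array's 75th percentile, and spots of a probe were averaged. Probes well above background on every array of a group were tested (27623) with limma 3.58.1 (R 4.3.3) on 32 arrays in 7 groups. Calls needed an adjusted p under 0.05 and 2-fold. "At least" folds set a dim array at the lowest signal among its probes well above background. All 10 members are named, each by its brightest probe, and listed genes are counted, with values for some of those called and for array markers. Tables were handled in Python 3.11.15. On simulated data, 73.5% to 95.5% of 200 probes changed by 2 on the log2 scale were recovered. The number of arrays limits precision. Same-numbered clones did not deviate together (16 of 75 pairs had a correlation over 0.1), so numbers do not pair clones.
Alternatives were normexp background correction (offset 50), quantile normalization, the deposited log2 table, a floor for dim signals, no filter, no fold minimum, slide as a random or fixed block, clone number as a block, the other probes of a gene, leaving out each array, and leaving out the 3 clones without Sox2 and Nanog.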

Additional observations from a re-analysis of the deposited data

Results flagged for a closer look

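In 60 sets of 5 clones (10 genes, 6 groups), 2 arrays lay far from the other 4 of their group by Dixon's criterion, which flags about 1 group in 20 by chance. Nt5e was -2.59 in 4F-TTF-iPS #4, against -1.37 to -1.20 in the other clones of that group. Vcam1 was 4.04 in 4F-TTF-iPS #2, against 2.96 to 3.18 in the others.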

How the results depend on the processing

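Of the member counts, those between sources of clones and between the 3F and 4F PaS clones stayed at 0 under every alternative run, except that without 4F-OP-iPS #2 limma called 1 gene between OP and TTF clones (Eng, with a log2 difference of 1.23). The count between 3F and 4F OP clones, 1 as reported, was 0 with normexp background correction, with slide as a random block, without the 3 clones lacking Sox2 and Nanog and with the other probe of each gene, 2 with dim signals raised to a floor, and 0 to 3 when 1 array was left out. The count between 3F and 4F TTF clones, 2 as reported, was 1 with normexp, with no filter on dim probes and with the other probe of each gene, 0 with slide as a random block, as a fixed term and without those 3 clones, and 0 to 3 when 1 array was left out. Clone number as a replicate block left 1, with Mcam at an adjusted p of 0.057. Same-numbered clones share only a number. Between clones and ES cells the count ran from 2, without EB-3, to 7, and the 6 over both arrays and the 7 without RF8 take in 4 genes not well above background in EB-3. Leaving out 1 array gave log2 differences of -3.91 to -3.40 for Ly6a in TTF clones, where the call was lost in 7 of 32 refits, 1.00 to 1.41 for Mcam in TTF clones, lost in 18, and 1.14 to 1.80 for Mcam in OP clones, lost in 4. PaS and OP arrays were 2-fold apart for 7 genes with the other probes, against 4. Eng between OP and TTF clones went from 0.68 to -0.044 without the 3 clones lacking Sox2 and Nanog, uncalled in both. Over all probes, slide as a random block lowered the calls from 1244 to 168 between 3F and 4F OP clones, from 1594 to 7 between 3F and 4F TTF clones and from 137 to 6 between PaS and TTF clones, and normexp gave 268, 478 and 22. Normexp moved the median of all probes to 0.15 between PaS and OP clones, to 0.11 between PaS and TTF clones and to -0.22 between 3F and 4F PaS clones. The cause was not tested. Dim spots limit the upstream Cd44 probe and EB-3.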
